A study of Mus musculus with 12 samples.

Results

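The small heat shock protein genes Cryab, Hspb1, Hspb2, Hspb6 and Hspb8 were followed in mouse spinal cord. They were taken by gene symbol and make up 5 of the 54532 genes in the deposited count table. RNA of the whole cord was sequenced in 12 libraries, 3 in each of 4 groups of C57BL/6 mice aged 2 to 3 months. The cKO EAE mice carried a conditional knockout labelled Drd2mGFAP cKO and were taken at day 17 of experimental autoimmune encephalomyelitis (EAE), an immune attack on myelin raised by immunization. The control EAE mice were littermates labelled wt at the same day, and cKO basal and control basal mice were the same genotypes without disease. Drd2 encodes the dopamine D2 receptor. The label names the promoter of GFAP, a filament protein of astrocytes; no source at hand gave the Cre line or the deleted part of Drd2. The series title names the question, whether loss of DRD2 in astrocytes changes inflammation of the central nervous system, and Cryab is a known target of astrocytic D2 receptor signalling.

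Small heat shock proteins share a conserved domain, the alpha-crystallin domain, and assemble into oligomers that hold unfolding proteins in solution without using ATP. Refolding or removal is then left to the ATP-driven chaperones and to autophagy. Cryab encodes alpha-B crystallin, known from the eye lens, from oligodendrocytes and astrocytes, and as an antigen that T cells recognise in multiple sclerosis. Hspb1 encodes HSP25, the mouse form of human HSP27, which protects filaments and actin under stress. Hspb8 encodes the partner of the co-chaperone Bag3 in selective autophagy, Hspb6 a protein of muscle that relaxes smooth muscle, and Hspb2 a protein mainly of heart and skeletal muscle. Some genes of this family are classical targets of the heat shock factor Hsf1, which binds repeats of the letters GAA in alternating direction.

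Stretches of the promoters are shown because each of the 3 members matched in the RefSeq promoter table (build GRCm38.p6, 250 bases before to 50 after a transcript start) holds a short form of such a repeat. Capitals mark each match to GAANNTTC, a motif that is its own reverse complement, and 20 bases are shown on either side.

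Hspb1, chr5:135887782-135887849, plus strand: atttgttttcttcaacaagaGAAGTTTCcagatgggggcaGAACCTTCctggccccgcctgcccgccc

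Hspb6, chr7:30553161-30553208, plus strand: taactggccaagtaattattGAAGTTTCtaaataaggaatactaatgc

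Hspb8, chr5:116422835-116422882, minus strand: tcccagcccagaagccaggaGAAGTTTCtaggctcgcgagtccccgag

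The matches began at positions -117 and -97 of Hspb1 and at -120 of Hspb6, counted from the transcript start. In Hspb8 the match began at position 3 of the transcript. A further Hspb6 window, at an upstream start, had no match. The letters GAANNTTC occurred in 7.86% of all 32851 promoter windows, and the form GAAGTTTC, which all 3 genes held and which was counted after it was seen there, in 1.21% on either strand. The opposite arrangement TTCNNGAA occurred in 8.52% of windows and in none of the windows of the 3 genes. A match of letters is not a measured binding site. Cryab and Hspb2 were not matched in that table.

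In the build mm10 of the deposited table, Cryab (ENSMUSG00000032060) spans chr9:50751325-50756636 on the plus strand and Hspb2 (ENSMUSG00000038086) chr9:50751078-50752354 on the minus strand. The 2 genes face away from each other, with 552 bases between the Hspb2 span and the transcript Cryab-201, but the transcript Cryab-206 starts within Hspb2, so that the spans share 1030 bases. No source at hand gave the strand setting of the counting, and reads from the shared bases cannot be assigned to either gene with certainty. Cryab lies 1343 kb from Drd2 on the same chromosome. Hspb1 (ENSMUSG00000004951) spans chr5:135887919-135889563, Hspb8 (ENSMUSG00000041548) chr5:116408491-116422864 and Hspb6 (ENSMUSG00000036854) chr7:30552178-30555443. The main annotated proteins are 175 residues long for Cryab, 209 for Hspb1, 182 for Hspb2, 162 for Hspb6 and 196 for Hspb8.

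Libraries held 15128913 to 17592105 counts, and 3 of them touch the results below. The library cKO basal 2 had 17220 detected genes, against 24303 to 26056 elsewhere, and relative to the other 2 libraries of its group its protein-coding genes of up to 1500 bases had a median log2 ratio of 1.21 and those over 3000 bases of -0.42. In control basal 1 the median of the short genes was 0.41 by the same measure. In cKO EAE 3 the disease response was small: Cd74, which encodes the MHC class II invariant chain, was at 6.56 CPM there, against 340 to 2736 CPM in the other EAE libraries. The tests of the members are therefore given with all libraries and without cKO basal 2 and cKO EAE 3. The EAE libraries held male RNA (Xist at most 0.287 CPM, Ddx3y 69.7 to 74.5 CPM) and the basal libraries female RNA (Xist 316 to 753 CPM, Ddx3y 0 counts), so disease and sex cannot be told apart in any contrast of EAE with basal. Drd2 itself was at 6.73, 12.5 and 19.4 CPM in cKO EAE, 8.89, 9.0 and 9.62 in control EAE, 17.6, 33.4 and 34.7 in cKO basal and 26.5, 19.4 and 19.7 in control basal. Its mean in cKO cords was above that in control cords at both states and did not pass, with log2 fold changes of 0.52 at EAE and 0.40 at basal (adjusted p = 0.318 and 0.997, edgeR). In whole cord other cells express the receptor, so the gene count does not check a deletion in astrocytes.

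Per length, alpha-B crystallin was the most abundant member in all 6 basal libraries and in 3 of the 6 EAE libraries. In TMM-normalised CPM per kilobase, Cryab stood at 69.4 ± 11.0 in cKO EAE, 90.6 ± 10.2 in control EAE, 115 ± 69.3 in cKO basal and 153 ± 66.0 in control basal (SD, n = 3 each). Hspb1 followed at 67.4 ± 40.6, 71.2 ± 37.5, 42.4 ± 39.5 and 30.9 ± 9.06 in the same order of groups. Both genes overlapped in their per-length levels within cKO EAE, control EAE and cKO basal, and did not overlap within control basal. Hspb8 came next at 29.2 ± 9.81, 32.9 ± 0.206, 17.3 ± 6.37 and 21.5 ± 3.44 CPM per kilobase. It overlapped with Hspb1 in the cKO groups and in control basal, but not in control EAE. Hspb6 lay below these, at 7.72 ± 1.95, 10.9 ± 2.34, 3.19 ± 2.81 and 4.74 ± 0.223 CPM per kilobase, and Hspb2 averaged at most 0.482 in any group. In each library the order ran Cryab or Hspb1, then Hspb8, then Hspb6, then Hspb2, with the exception of cKO basal 2, where Hspb6 had no reads.

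Per deposited gene length, the order at the top changed in some diseased cords. The ratio of Hspb1 to Cryab, per length, was 1.21, 1.24 and 0.357 in cKO EAE 1 to 3 and 0.423, 0.623 and 1.40 in control EAE 1 to 3. It was 0.334, 0.448 and 0.186 in cKO basal 1 to 3 and 0.177, 0.276 and 0.183 in control basal 1 to 3. All 3 control EAE values lay above all 3 control basal values, and the cKO EAE values overlapped with those of cKO basal through cKO EAE 3. The ratio is set by both genes and does not show which of them differed. In CPM, before division by length, Cryab was above Hspb1 in every library, so the change of order rests on the lengths used. The deposited lengths are 1479 bases for Cryab and 1031 for Hspb1. Single annotated transcripts run from 836 to 1117 bases for Cryab and from 903 to 930 for Hspb1.

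**Figure D1:**
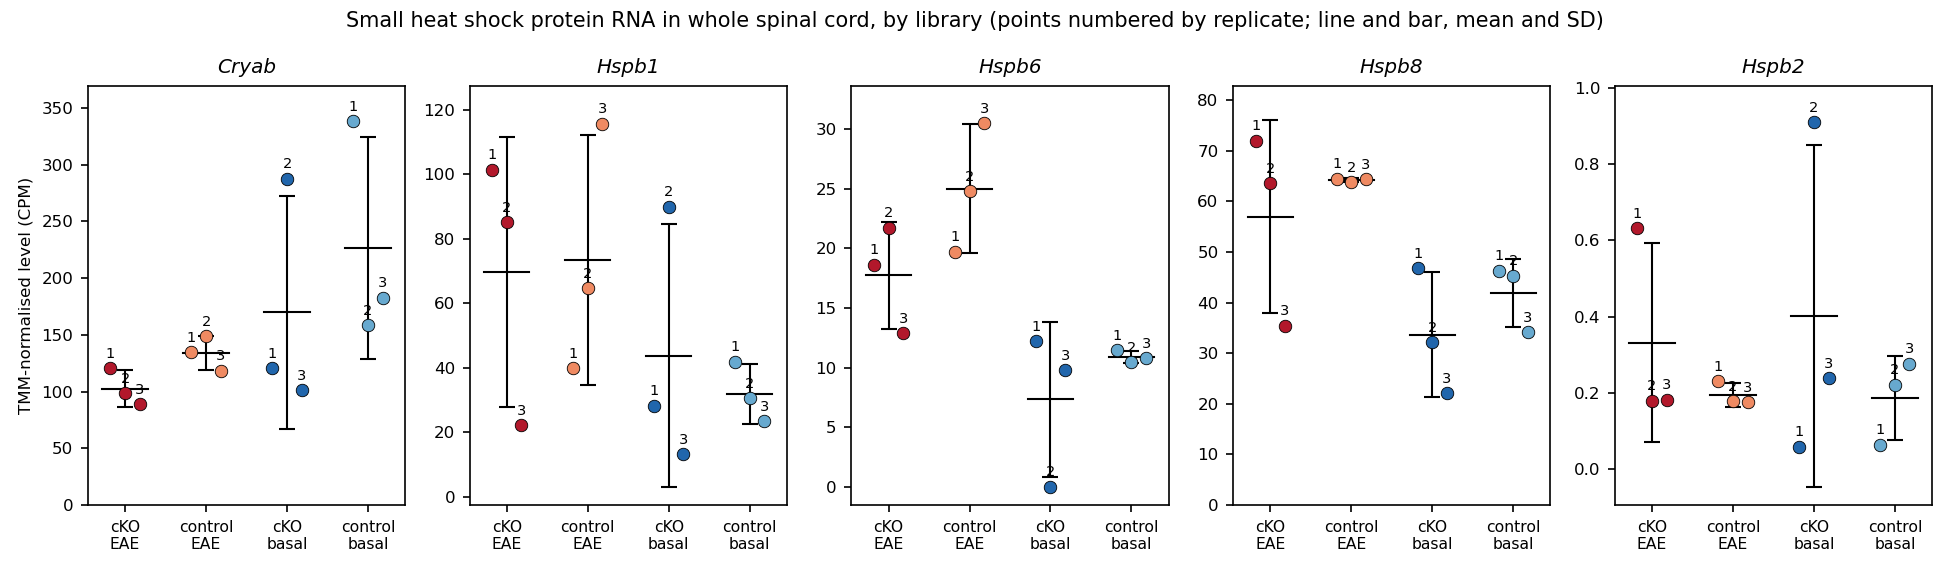
Level of each small heat shock protein gene in TMM-normalised CPM (vertical axes, a scale of its own for each gene) in every library, with points numbered by replicate and the mean and SD of 3 libraries per group. Cryab is highest in control basal 1 at 338 CPM and in cKO basal 2 at 288 CPM, Hspb1 spreads from 22.1 to 116 CPM within the EAE groups, and Hspb8 in control EAE stays within 63.8 to 64.5 CPM.

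Alpha-B crystallin RNA was lower in control EAE than in control basal cords in every library. Cryab was at 135, 149 and 119 CPM in control EAE 1 to 3, against 338, 158 and 183 CPM in control basal 1 to 3. The groups did not overlap, and control basal 1 stood far above the rest. The log2 fold change was -0.76 (SE 0.40, 95% interval -1.63 to 0.12) with adjusted p = 0.248 (quasi-likelihood F test of edgeR, adjusted by Benjamini-Hochberg), so it did not pass with all libraries in the fit. Without cKO basal 2 and cKO EAE 3 the fold was nearly the same, -0.75 (SE 0.23, adjusted p = 0.0201), and passed. With control basal 1 left out as well it was -0.36 and still passed (adjusted p = 0.0406). Markers of mature oligodendrocytes, a cell type rich in alpha-B crystallin, summed to 17256, 16870 and 13621 CPM in control EAE and to 24563, 25803 and 25535 CPM in control basal over their 12 genes. Of these 12 genes, 9 passed as lower without the 2 libraries and 1 with all libraries, and their part in the Cryab result was not tested. Within control basal, control basal 1 had the highest Cryab level and the lowest marker sum. In bulk tissue, fewer cells of a type and less RNA per cell cannot be told apart.

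Hspb1 had the widest spread among diseased controls. Its level was 39.8, 64.6 and 116 CPM in control EAE 1 to 3, against 41.8, 30.4 and 23.3 CPM in control basal 1 to 3. Control EAE 1 fell within the basal range, and control EAE 3 was the highest library of the study for this gene. The log2 fold change was 1.20 (SE 0.71, adjusted p = 0.315) with all libraries and 1.22 (SE 0.36, adjusted p = 0.0150) without cKO basal 2 and cKO EAE 3. The control libraries are the same in both fits, and the SE is what differs.

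Hspb6 and Hspb8 were higher in control EAE than in control basal cords without overlap. Hspb6 was at 19.7, 24.8 and 30.5 CPM in control EAE and at 11.4, 10.4 and 10.8 CPM in control basal. Its log2 fold change of 1.20 (SE 0.90) missed the threshold with all libraries (adjusted p = 0.447), and the value without cKO basal 2 and cKO EAE 3, 1.21 (SE 0.18), passed at adjusted p = 0.000127. Hspb8 was at 64.5, 63.8 and 64.4 CPM in control EAE and at 46.3, 45.3 and 34.2 CPM in control basal, so the diseased controls were nearly identical. Its log2 fold change was 0.61 (SE 0.31, adjusted p = 0.222) with all libraries and 0.62 (SE 0.22, adjusted p = 0.0316) without the 2 libraries.

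Counted together, 0 of the 4 members tested passed in control EAE against control basal with all 12 libraries, where 17.1% of 18601 genes did. Without cKO basal 2 and cKO EAE 3, 4 of 4 passed, where 45.8% of 18956 genes did. Of the 4, 3 were higher (24.9% of genes) and 1 was lower (20.8%). Hspb6 and Hspb8 were separate and higher in all libraries, as were 29.8% of genes tested, and Cryab was separate and lower, as were 27% of genes. In a fit of the 6 control libraries alone 4 of 4 passed as well, where 45.6% of 17872 genes did. Shares of this size over all genes mean that such calls were common in this comparison. Hspb2 did not pass the filter on low counts in any fit, having 17 counts over the 3 cKO EAE libraries, 10 in control EAE, 15 in cKO basal and 10 in control basal.

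In the cKO mice Hspb1, Hspb6 and Hspb8 had higher means and Cryab a lower mean in EAE than in basal cords, and each value depended on the libraries that stood apart. Cryab was at 121, 98.5 and 88.9 CPM in cKO EAE 1 to 3, against 121, 288 and 101 CPM in cKO basal 1 to 3. With all libraries the log2 fold change was -0.73 (SE 0.40, adjusted p = 0.331), and without cKO basal 2 and cKO EAE 3 it was -0.03 (95% interval -0.66 to 0.59, adjusted p = 0.964). The lower mean in cKO EAE therefore depended on cKO basal 2, in which oligodendrocyte markers summed to 64086 CPM, against 23265 and 17733 CPM in cKO basal 1 and 3. The part of these cells in the Cryab value was not tested. The median log2 fold change of protein-coding genes of up to 1500 bases, a class that holds Cryab with its 1479 bases, was -0.55 in this comparison with all libraries and 0.09 without both.

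Hspb1 was at 101, 85.1 and 22.1 CPM in cKO EAE 1 to 3 and at 28.2, 89.9 and 13.1 CPM in cKO basal 1 to 3. The high basal value came from cKO basal 2 and the low diseased value from cKO EAE 3. The log2 fold change was 0.67 (SE 0.71, adjusted p = 0.635) with all libraries and 2.16 (SE 0.45, 95% interval 1.17 to 3.15, adjusted p = 0.00619) without them, a 4.47-fold difference over 2 libraries in each group.

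Hspb6 was at 18.6, 21.7 and 12.9 CPM in cKO EAE 1 to 3 and at 12.2, 0 and 9.78 CPM in cKO basal 1 to 3. The groups did not overlap, which 9.8% of genes also did in the higher direction. Its 0 in cKO basal 2 was shared by 84 of the 10736 genes that had at least 100 counts in each of the other libraries (0.782%). The log2 fold change was 1.26 (SE 0.91, adjusted p = 0.467) with all libraries and 0.86 (SE 0.22, adjusted p = 0.0173) without the pair.

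Hspb8 was at 72.0, 63.6 and 35.4 CPM in cKO EAE 1 to 3 and at 46.8, 32.2 and 22.1 CPM in cKO basal 1 to 3. Only cKO EAE 3 lay within the basal range. The log2 fold change was 0.76 (SE 0.31, adjusted p = 0.227) with all libraries and 0.96 (SE 0.27, adjusted p = 0.0289) without cKO basal 2 and cKO EAE 3. With all libraries 0 of 4 members and 0.0376% of genes passed in the cKO mice, and without the 2 libraries 3 of 4 members and 14.3% of genes did. The 3 were all higher, as were 10.8% of genes.

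**Figure D2:**
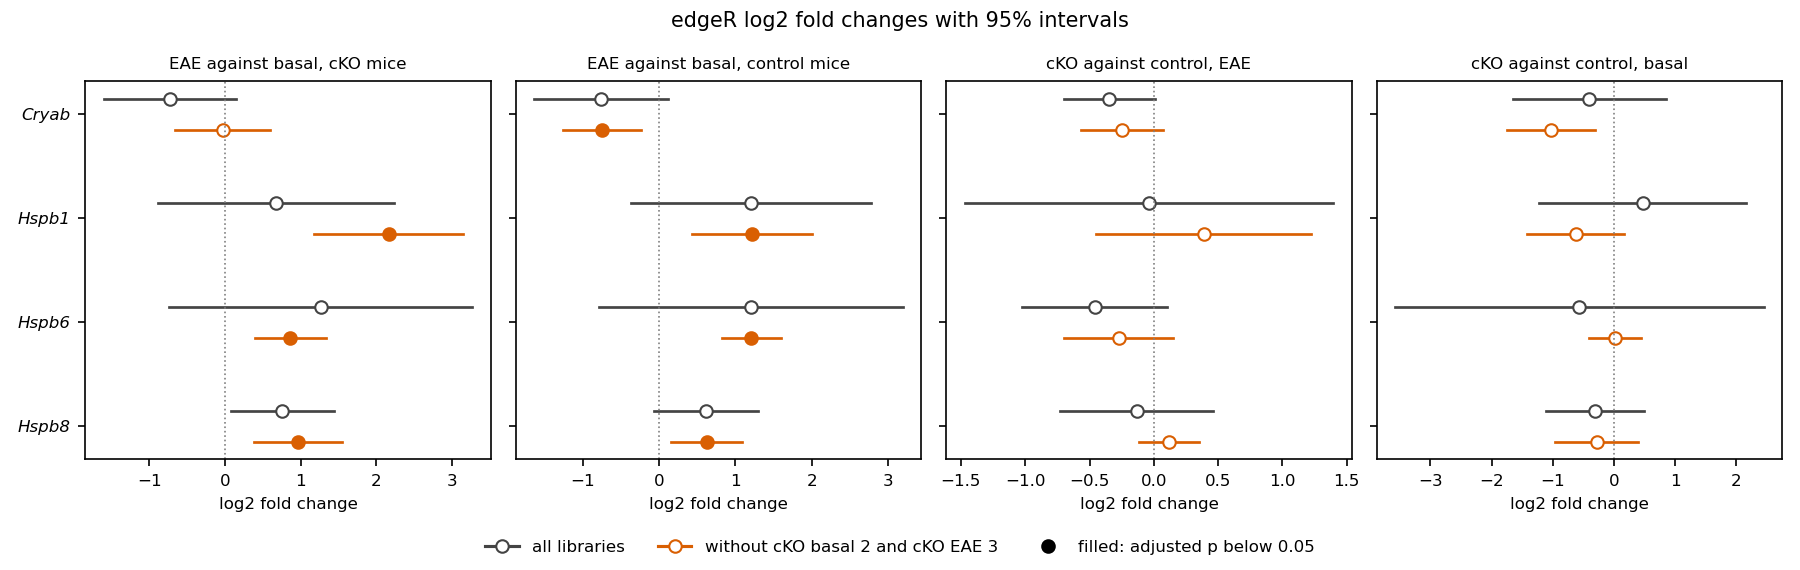
Log2 fold changes from edgeR (horizontal axes) of the 4 small heat shock protein genes tested, with 95% intervals, for EAE against basal in cKO and in control mice and for cKO against control at EAE and at basal; dark points use all libraries, orange points leave out cKO basal 2 and cKO EAE 3, and filled points passed at an adjusted p below 0.05. The filled points are Hspb1, Hspb6 and Hspb8 in both EAE contrasts and Cryab in control mice, all without the 2 libraries, and the widest intervals are those of Hspb6 with all libraries, except at EAE between the genotypes, where that of Hspb1 is widest.

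The response to EAE was not shown to differ between genotypes for any member. The difference of the EAE responses, cKO minus control, was 0.03 for Cryab, -0.53 for Hspb1, 0.06 for Hspb6 and 0.14 for Hspb8 on the log2 scale with all libraries, with adjusted p from 0.891 to 0.996. No gene of 18601 passed in edgeR (0%), and 9.12% had an unadjusted p below 0.05; DESeq2 called 91 genes and voom 2999, no member among them. Without cKO basal 2 and cKO EAE 3 the differences were 0.72 (95% interval -0.09 to 1.52) for Cryab, 0.95 (-0.29 to 2.18) for Hspb1, -0.35 (-0.95 to 0.25) for Hspb6 and 0.34 (-0.40 to 1.08) for Hspb8, and again 0% of genes passed, with 18.1% at an unadjusted p below 0.05, where DESeq2 called 948 genes and voom 801, again with no member. Hspb1 and Hspb6 changed the sign of this difference between both sets of libraries. The intervals are wide enough to hold differences of over 2-fold for Cryab, Hspb1 and Hspb8 in either set, and for Hspb6 with all libraries.

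At day 17 of EAE, cKO and control cords overlapped in every member. Cryab was at 121, 98.5 and 88.9 CPM in cKO EAE and at 135, 149 and 119 CPM in control EAE, where only cKO EAE 1 reached the control range. Its log2 fold change of -0.35 (SE 0.15, 95% interval -0.70 to 0.01) did not pass (adjusted p = 0.146), nor did the value without cKO EAE 3, -0.25 (SE 0.14, 95% interval -0.57 to 0.07). Mature oligodendrocyte markers ran the other way here, with sums of 18913 to 25807 CPM in cKO EAE and 13621 to 17256 CPM in control EAE. Hspb1, at 101, 85.1 and 22.1 CPM in cKO EAE and 39.8, 64.6 and 116 CPM in control EAE, gave -0.04 (95% interval -1.47 to 1.40) with all libraries and 0.39 (-0.45 to 1.22) without cKO EAE 3. Hspb6, at 18.6, 21.7 and 12.9 CPM in cKO EAE and 19.7, 24.8 and 30.5 CPM in control EAE, gave -0.46 (SE 0.24, adjusted p = 0.205) with all libraries and -0.27 (SE 0.18, adjusted p = 0.342) without cKO EAE 3. Hspb8, at 72.0, 63.6 and 35.4 CPM against 63.8 to 64.5 CPM, gave -0.13 (95% interval -0.73 to 0.46) with all libraries and 0.12 (-0.11 to 0.35) without cKO EAE 3. In this comparison 0 of 4 members passed, against 7.67% of 17914 genes, and without cKO EAE 3 again 0 of 4, against 18.2%.

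Without disease, cKO and control cords overlapped in every member with all libraries, and Cryab separated them without cKO basal 2. Cryab was at 121, 288 and 101 CPM in cKO basal and at 338, 158 and 183 CPM in control basal, with a log2 fold change of -0.40 (SE 0.52, 95% interval -1.65 to 0.85). The remaining cKO basal libraries, at 121 and 101 CPM, lay below all control basal libraries, and the log2 fold change was then -1.03 (SE 0.32, 95% interval -1.75 to -0.30, unadjusted p = 0.0113). It did not pass over all genes (adjusted p = 0.954), and 11.1% of genes were separate and lower in that comparison. With control basal 1 alone left out, the value was 0.0080. Protein-coding genes of up to 1500 bases had a median log2 fold change of 0.54 with all libraries and -0.31 without cKO basal 2, and the part of that shift in the Cryab value was not tested.

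For the other members the basal log2 fold changes were 0.47 (SE 0.70) for Hspb1, -0.56 (SE 1.25) for Hspb6 and -0.31 (SE 0.33) for Hspb8 with all libraries, each at adjusted p = 0.997. Leaving out cKO basal 2, they were -0.62 (SE 0.35), 0.02 (SE 0.19) and -0.28 (SE 0.30). Hspb1, at 1031 bases the shortest of the members tested, followed the same libraries as Cryab, with 28.2 and 13.1 CPM in cKO basal 1 and 3 against 41.8, 30.4 and 23.3 CPM in control basal. No gene passed in edgeR with all libraries (0% of 17133, and 0.181% at an unadjusted p below 0.05) or without cKO basal 2 (0%, and 2.21%), and in each case DESeq2 called 1 gene, no member, and voom 0.

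The members are set here beside the RNA of infiltrating cells. Over 8 markers of monocytes and macrophages, among them Ccr2 and Cd74, the summed level was 852, 1489 and 44.3 CPM in cKO EAE 1 to 3, 6846, 3284 and 2516 CPM in control EAE 1 to 3, and 19.3 to 32.4 CPM in the basal libraries. Hspb6 and Hspb8 were higher in each of the 5 other EAE libraries than in any basal library, and in cKO EAE 3, with little marker RNA, they were near the basal values. Among those 5 the Hspb1 level did not rise with the marker sum. In order of rising marker sum it was at 101, 85.1, 116, 64.6 and 39.8 CPM. Control EAE 1, with the highest marker sum, had the lowest Hspb1 level of the 5 at 39.8 CPM. Control EAE 3, with 2516 CPM of marker RNA, had the highest at 116 CPM. Cryab was at 98.5 to 149 CPM in the 5 libraries and at 88.9 CPM in cKO EAE 3. The part of infiltrating cells in these levels was not tested.

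**Figure D3:**
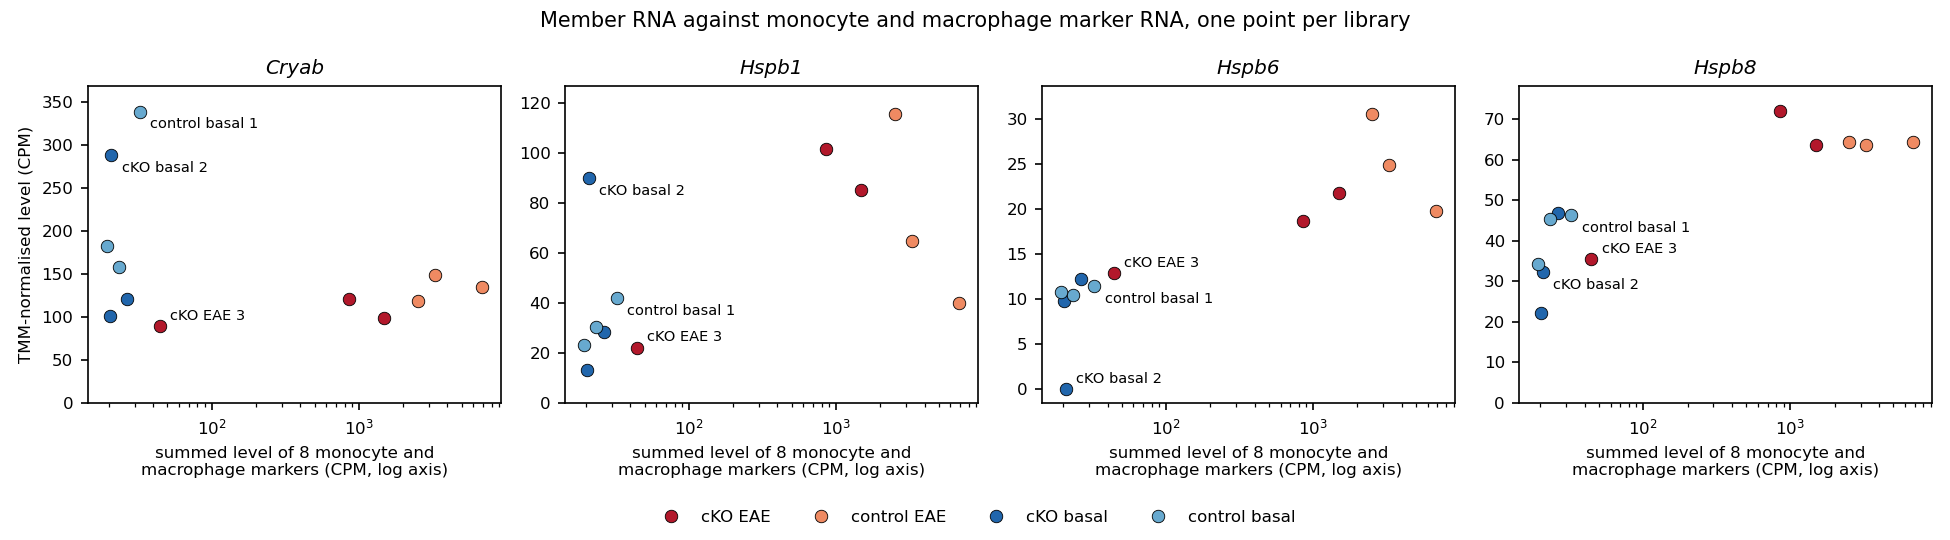
Level of Cryab, Hspb1, Hspb6 and Hspb8 in TMM-normalised CPM (vertical axes) against the summed CPM of 8 monocyte and macrophage markers (horizontal axes, logarithmic), with a point for each of the 12 libraries coloured by group. The 5 EAE libraries other than cKO EAE 3 lie to the right, with Hspb6 at 18.6 to 30.5 CPM and Hspb8 at 63.6 to 72.0 CPM. In marker sum cKO EAE 3, at 44.3 CPM, lies near but above the basal libraries at 19.3 to 32.4 CPM.

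Other cells that carry these proteins were looked at by their markers. Smooth muscle and pericyte markers, 9 genes that cover cells in which Hspb6 is known, summed to 267 to 275 CPM in cKO EAE, 233 to 262 in control EAE, 61.8 to 185 in cKO basal and 174 to 182 in control basal. Both the marker sum and Hspb6 were lowest in cKO basal 2, where 2 of the 9 markers had no reads. Elsewhere they did not run together. The sum was highest in cKO EAE 3, at 275 CPM, where Hspb6 was at 12.9 CPM, its lowest level among the EAE libraries. All cKO EAE sums lay above all control EAE sums, and Hspb6 had the lower mean in cKO EAE. Skeletal muscle markers summed to at most 10.9 CPM over 10 genes in any library, with up to 5 of them at 0. Schwann cell markers, 8 genes of peripheral nerve, summed to 417, 123 and 226 CPM in cKO EAE 1 to 3, 121 to 128 in control EAE, 38.7 to 99.7 in cKO basal and 66.4 to 93.6 in control basal. Astrocyte markers outside the filaments, 11 genes, summed to 6593 to 7412 CPM in cKO EAE, 5326 to 5424 in control EAE, 6167 to 11882 in cKO basal and 6035 to 6976 in control basal. The part of these cells in the members' levels was not tested.

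The remaining family members were near the detection limit. Of Hspb3, Hspb7, Hspb9, Cryaa and Odf1, 1 passed the filter on low counts over the 12 libraries, Hspb7, a cardiac member, with 7 counts in cKO EAE, 38 in control EAE, 15 in cKO basal and 12 in control basal. Its log2 fold change in control EAE against control basal was 1.65 (SE 0.91, adjusted p = 0.275) and did not pass. Cryaa, the alpha-A crystallin of the lens, had 3, 1, 5 and 5 counts in the same order of groups.

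The ATP-driven chaperones of the cytosol and mitochondria take over substrates from small heat shock proteins, and they were listed with their co-chaperones, the factors Hsf1 and Hsf2, and Serpinh1. Of these 24 genes, 1 was higher and 4 were lower in control EAE than in control basal, where 12.1% of all genes tested were higher and 5.05% lower, with a median log2 fold change of -0.51, against -0.01 over all genes tested. Fkbp4, a co-chaperone of HSP90, fell by 1.10 (SE 0.24, adjusted p = 0.0107) and Hspa4l, a nucleotide exchange factor, by 0.97 (SE 0.22, adjusted p = 0.0133). The gene that rose was Serpinh1, the collagen chaperone of the endoplasmic reticulum, by 1.61 (SE 0.30, adjusted p = 0.00520). Markers of fibroblasts and meninges, cells that make collagen, summed to 320 to 372 CPM in control EAE and 53.5 to 56.8 CPM in control basal. Leaving out cKO basal 2 and cKO EAE 3, 1 was higher and 14 were lower, where 24.9% of all genes were higher and 20.8% lower. The Hsf1 gene itself was at 45.1 ± 2.66 CPM in control EAE and 45.6 ± 1.87 CPM in control basal (SD, n = 3 each).

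The genes of endoplasmic reticulum chaperones and the unfolded protein response that passed were higher. Of 16 tested, 4 were higher and none lower in control EAE than in control basal, where 12.1% of all genes were higher, with a median log2 fold change of 0.65. They included Xbp1, a transcription factor of the unfolded protein response (1.05, SE 0.23), Pdia3, a disulfide isomerase (0.94, SE 0.27), and Calr, the calcium-binding chaperone calreticulin (0.85, SE 0.20), with adjusted p from 0.0109 to 0.0330. Without the 2 libraries 11 of 16 were higher, as were 24.9% of all genes. All 8 markers of monocytes and macrophages and all 8 of T cells rose in the same comparison, and their part in this list was not tested.

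Partners of Hspb8 in selective autophagy and the filament clients of the family were mixed. Of 9 co-chaperone and autophagy genes, Flnc, which encodes the filamin cleared by the Bag3 pathway, rose in control EAE by 2.04 (SE 0.52, adjusted p = 0.0205), and Stub1, a ubiquitin ligase, fell by 0.69 (SE 0.19, adjusted p = 0.0328), with a median of -0.31. Bag3 was at 46.8 ± 2.03 CPM in control EAE and 45.0 ± 5.52 CPM in control basal (SD, n = 3 each). Of 10 intermediate filament genes, 3 rose and 3 fell, with a median of -0.77. Over all genes tested 12.1% were higher and 5.05% lower. Vim (4.09, SE 0.65) and Nes (2.16, SE 0.42), filaments of reactive glia and vessels, rose, and Nefl, a neurofilament, fell by 1.40 (SE 0.28), with adjusted p from 0.00321 to 0.00656. Without cKO basal 2 and cKO EAE 3, 4 filament genes were higher and 6 lower, and 2 co-chaperone genes were higher and 3 lower. Of all genes 24.9% were then higher and 20.8% lower. Neuronal markers summed to 2346 to 3210 CPM in control EAE and 6021 to 7657 CPM in control basal. This sum includes Nefl and Nefh, which are also in the filament list, so it is not independent of that list.

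In the cKO mice none of these genes passed with all libraries. The medians of log2 fold change for cKO EAE against cKO basal were -0.35 for the cytosolic and mitochondrial list, -0.02 for the endoplasmic reticulum list, 0.04 for the co-chaperone list and 0.13 for the filament list, against 0.08 over all genes. Without cKO basal 2 and cKO EAE 3 those that passed were Serpinh1 (higher), the stress-inducible Hspa1a and Hspa1b (lower), Pdia4 and Dnajc3, Flnc, and the filament genes Vim, Nes and Gfap (all higher), where 10.8% of all genes were higher and 3.51% lower. Hspa1a and Hspa1b are near-identical copies, and the counting may divide their reads.

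At day 17, some genes of the chaperone and filament lists passed between the genotypes. Of the 24 cytosolic and mitochondrial genes, 4 were higher and none lower in cKO EAE than in control EAE, where 6.13% of all genes were higher and 1.54% lower, with a median log2 fold change of 0.17. Hspa4l was higher by 0.96 (SE 0.18), Hsph1, an HSP110 chaperone, by 0.79 (SE 0.15) and Fkbp4 by 0.57 (SE 0.12). Of the 16 genes of the endoplasmic reticulum list, 5 were lower and none higher, with a median of -0.69. Creld2, a stress-induced isomerase, fell by 0.99 (SE 0.17), Calr by 0.82 (SE 0.17) and Hspa5, the chaperone BiP, by 0.68 (SE 0.14). Of the 10 filament genes, 4 rose, all of neurons, among them Nefh (1.38, SE 0.27), Nefl (1.25, SE 0.20) and Ina (0.92, SE 0.14). The adjusted p of the genes named ran from 0.0440 to 0.0463, and no gene of the study passed with library totals in place of TMM factors, with the replicate block, with all 12 libraries in the fit, or without any 1 of cKO EAE 1 and control EAE 1, 2 and 3. Without cKO EAE 3, where 9.11% of all genes were higher and 9.1% lower, 5 genes of the cytosolic and mitochondrial list were higher and 1 was lower, 9 of the endoplasmic reticulum list were lower and none higher, and 6 of the filament list were higher and 2 lower. The lower ones outside the endoplasmic reticulum list were Serpinh1, Vim and Nes. Genes named here that passed with all libraries kept their sign under each scaling tried on all libraries.

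None of the 9 co-chaperone genes passed between the genotypes at EAE with all libraries, and Dnajb2 came nearest at 0.41 (SE 0.10, adjusted p = 0.0511). It was the only one that passed without cKO EAE 3, as higher (adjusted p = 0.0361). Neuronal markers, with Nefl and Nefh of the filament list among them, summed to 4773 to 6361 CPM in cKO EAE and 2346 to 3210 CPM in control EAE. Mature oligodendrocyte markers summed to 18913 to 25807 and 13621 to 17256 CPM. The comparisons above share the control EAE libraries, so that their values for the same gene are not independent.

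**Figure D4:**
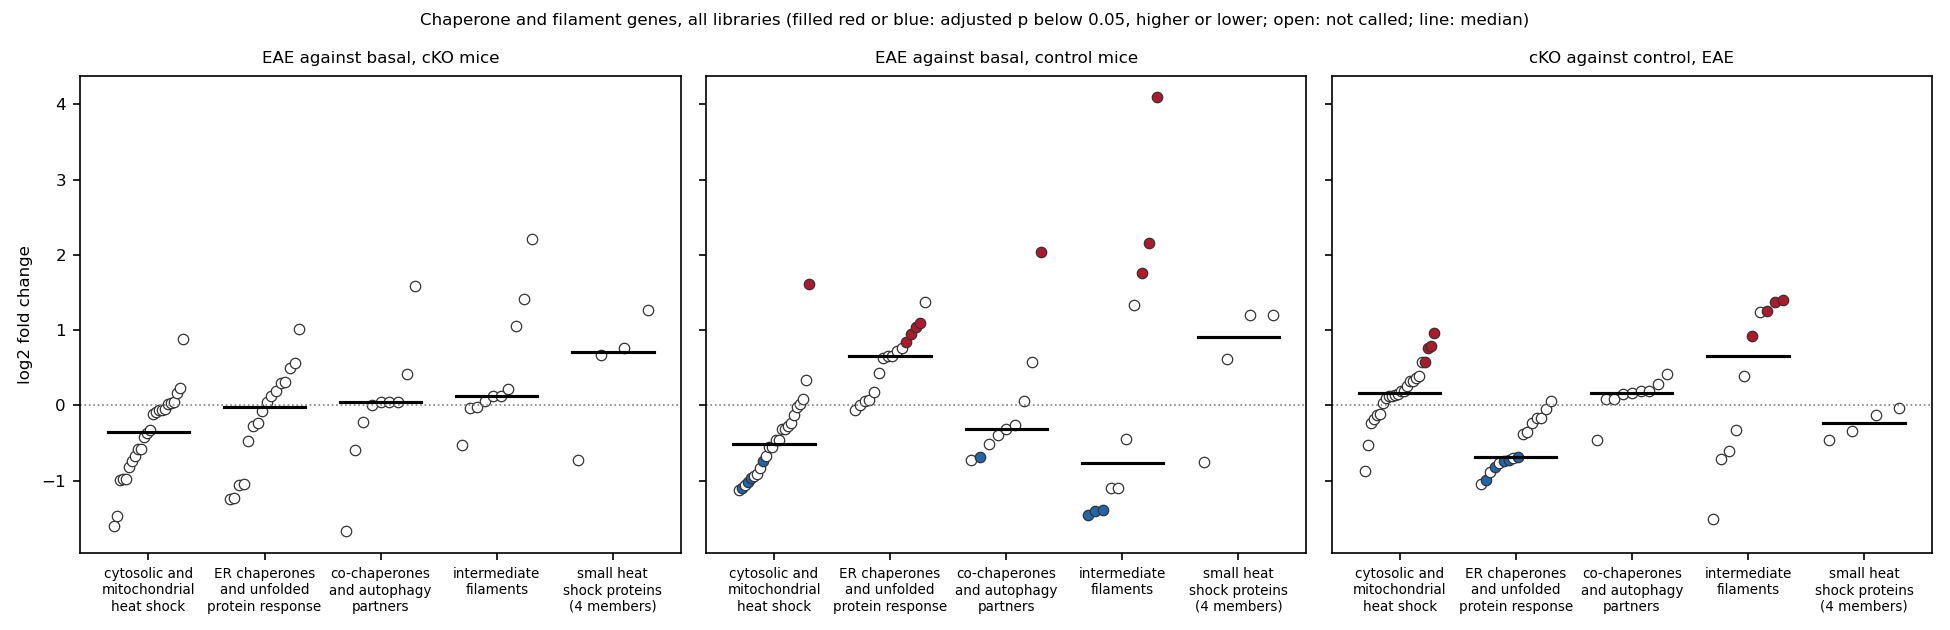
Log2 fold change (vertical axis) of each gene of the 4 chaperone and filament lists and of the 4 small heat shock protein genes, for EAE against basal in cKO and in control mice and for cKO against control at EAE, with all libraries; filled red and blue points passed as higher and lower, and bars are list medians. In control mice the endoplasmic reticulum list has its median at 0.65 and the cytosolic list at -0.51, and between the genotypes at EAE they stand at -0.69 and 0.17.

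Protein-coding genes whose profile over the 12 libraries was most like each member were found by the root mean square difference of centred log2 CPM. They were Ak6, AI413582 and Cfdp1 for Cryab (0.27 to 0.29), Cela1, Endou and Trf for Hspb1 (0.33 to 0.44), Ttf2, Usp12 and Prkx for Hspb6 (0.25 to 0.26) and Olfml2b, Csk and Zyx for Hspb8 (0.21 to 0.24). The spread of the members over libraries, as SD of log2 CPM, was 0.57, 0.97, 2.01 and 0.50 in that order, where the value of Hspb6 was set by its 0 in cKO basal 2. Over the 10 libraries without cKO basal 2 and cKO EAE 3, Cela1 stayed among the 3 nearest for Hspb1 and Olfml2b among those for Hspb8, and the others were replaced.

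Of the genes within 20 kb of a member, 2 passed in a comparison with all libraries. Over all genes tested, 17.1% passed in control EAE against control basal and 7.67% in cKO EAE against control EAE. Beside Cryab and Hspb2, Dixdc1, a gene of Wnt signalling, fell in control EAE against control basal (log2 fold change -0.78, SE 0.19, adjusted p = 0.0167), and 2310030G06Rik was higher in cKO EAE than in control EAE (1.46, SE 0.26, adjusted p = 0.0440). Alg9, Fdxacb1 and 1110032A03Rik did not pass in either comparison with all libraries. Beside Hspb1, Ywhag had a log2 fold change of -0.86 (SE 0.33, adjusted p = 0.109) in control EAE against control basal, opposite in sign to that of Hspb1. With both libraries left out, control EAE against control basal passed for Dixdc1, 1110032A03Rik and 2310030G06Rik beside Cryab and Hspb2 (all lower). It also passed for Ywhag and Srrm3 beside Hspb1 (lower) and for Kmt2b and Proser3 beside Hspb6 (higher), where 45.8% of all genes passed. In cKO EAE against cKO basal Srrm3 then passed as lower, where 14.3% of all genes passed. Between the genotypes at EAE, 2310030G06Rik and Ywhag passed as higher without cKO EAE 3, where 18.2% of all genes passed. The spans of Lin37 and Proser3 share 3 and 122 bases with Hspb6 on the opposite strand.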

How the data were processed

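RNA sequencing measured total RNA of whole spinal cord in 12 libraries, 3 per group, each labelled as a biological replicate; p-values measure the spread between these samples. The deposited table held raw counts per gene. Per the submitters' processing notes, reads were aligned with HISAT2 2.0.5 to mm10 and counted with featureCounts 1.5.0-p3. Neither the labels nor the notes give the strand setting, the handling of multiply mapped reads or the library kit.

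From the counts as the authors deposited them, edgeR 4.0.16 (limma 3.58.1, R 4.3.3) was run over all genes with TMM factors, its filter on low counts and the quasi-likelihood F test, and a gene was called at a Benjamini-Hochberg adjusted p below 0.05. EAE responses and their difference came from 1 fit of 12 libraries, and genotypes were compared within the 6 EAE or 6 basal libraries. The SE is the log2 fold change divided by the square root of F. CPM is TMM-normalised, and levels per length use the deposited gene length. The steps were tested on simulated data.

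Alternatives were DESeq2 1.42.0, limma voom with sample weights, other scalings, no filter, edgeR's robust option, the replicate block, other sets of libraries and leaving out libraries. The libraries cKO basal 2 and cKO EAE 3 were themselves picked from these data, the first by detected genes and gene length, the second by its small disease response. That response is also what EAE against basal measures. Leaving out control basal 1 beside these 2, and DESeq2, voom and library totals without these 2, were chosen after seeing the data. The members and lists were chosen with earlier results of these data known. Named were the members, Drd2, the 3 protein-coding genes of most similar profile, genes within 20 kb, up to 3 called genes of each list by smallest p, or 2 uncalled. Bag3, Hsf1, Hspb7, Cryaa and the list genes called without the 2 libraries were named beyond that rule after their values were seen. Sequences were read from RefSeq (GRCm38.p6).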

Additional observations from a re-analysis of the deposited data

How the results depend on the processing

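With cKO basal 2 and cKO EAE 3 left out, 4 of 4 members passed in control EAE against control basal, also with control basal 1 left out, under DESeq2, under voom and with library totals, fits in which 45.7% to 58.3% of all genes passed. So did 4 under voom with all libraries (59.8% of genes) and 4 in a fit of the 6 control libraries (45.6%), against 0 in the reported fit (17.1%). Leaving out each library in turn gave 0 to 2 members, and the 2, without cKO basal 2 (42.9% of genes), were Cryab and Hspb6. In cKO EAE against cKO basal, 3 passed in each of the fits without both libraries (14.3% to 21.9% of genes) and 2 under voom with all libraries (19.6%). In the other comparisons 0 members passed under any alternative run, edgeR, DESeq2 and voom included.

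Calls over all genes moved as well. In control EAE against control basal there were 3183, and 1724 to 8166 with 1 library left out, the highest without cKO basal 2. In cKO EAE against cKO basal there were 7, and 1075 without cKO EAE 3. For cKO against control at EAE there were 1374, but 0 with library totals, with the replicate block, with all 12 libraries in the fit, or without any 1 of cKO EAE 1 and the control EAE libraries, and 3418 without cKO EAE 2.

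Of the alternative values for the members, 362 kept direction and side of the threshold, 47 came past it and 55 changed sign; none of those that changed sign passed a test, and the cause was not tested. Cryab in cKO EAE against cKO basal was 0.041 under voom. For the difference of the EAE responses, Cryab was -0.069 with DESeq2's size factors and -0.069 with its Wald test. Hspb1 was 0.96 under voom and, without both libraries, 0.95 by edgeR, 0.76 with control basal 1 also out, 0.97 by DESeq2, 0.99 by voom and 0.92 with library totals. Hspb6 was -0.40, -0.35, -0.33, -0.33, -0.35 and -0.37 in the same settings. For cKO against control at EAE, Hspb1 was 0.0019 with upper quartile factors, 0.47 under voom and, without cKO EAE 3, 0.39 by edgeR, 0.40 by DESeq2, 0.55 by voom and 0.32 with library totals. Hspb8 was 0.095 under voom and, without that library, 0.12, 0.13, 0.12 and 0.058. For cKO against control at basal, Hspb1 was -0.47 under voom and, without cKO basal 2, -0.62 by edgeR, -0.38 with control basal 1 also out, -0.62 by DESeq2, -0.50 by voom and -0.60 with library totals. Hspb6 was 0.0010, 0.017, 0.053, 0.021, 0.046 and 0.039 in the same settings.

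Leaving out 1 library at a time, the difference of the EAE responses ran from -0.37 to 0.63 for Cryab, -0.96 to 0.53 for Hspb1, -0.52 to 0.64 for Hspb6 and -0.079 to 0.47 for Hspb8. For cKO against control at EAE the ranges were -0.43 to 0.45 for Hspb1 and -0.35 to 0.12 for Hspb8, and at basal -1.03 to 0.0080 for Cryab, -0.62 to 0.90 for Hspb1 and -1.14 to 0.017 for Hspb6. Where control EAE 3 was left out, Hspb1 at EAE was 0.45.

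With the replicate block 0 members passed in each of the 5 comparisons. The replicate numbers were not taken to pair the samples: of 12 same-numbered pairs, 3 had a correlation of deviations over 0.1 (range -0.46 to 0.37), and 6 correlated best with their own number. Scaling moved the median of all genes by over 0.1 for upper quartile factors (-0.12 in control EAE against control basal, 0.10 in the difference of responses) and library totals (-0.11 in cKO against control at basal). Hspb2 was limited by its low counts, 1 to 11 per library, and the cause was not tested.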
